A study of Homo sapiens with 6 samples.

Results

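The genes described here encode 13 subunits of Integrator, 5 subunits of the PAF1 complex and elongation factors that travel with RNA polymerase II: DSIF with its neighbours SPT6 and IWS1, FACT, NELF, TFIIS and the ELL-associated factors. They were taken by name, as the rows of the deposited gene table whose symbol equals one of 32 symbols, and make up 32 of the 26793 rows that carry a symbol. Each of the 32 symbols matched 1 row, none of these rows joins several symbols, and all 32 passed the minimum of 10 normalized reads in at least 3 libraries. The values were measured by polyA RNA sequencing in OVCAR3, an established cell line from a high-grade serous ovarian adenocarcinoma. The question of the study was how inhibition of the kinases CDK12 and CDK13, which phosphorylate the tail of RNA polymerase II, changes the transcriptome of these cells. 3 cultures received the solvent DMSO for 6 h and 3 received THZ531, a covalent inhibitor of both kinases, at 200 nM for 6 h. The titles, descriptions and treatment labels name THZ531, whereas the treatment protocol in the labels names THZ1, a related compound. No genotype differs between the groups, which share the 1 line, its medium and serum, so the values describe 1 cell line at 1 dose and 1 time.

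After initiation, RNA polymerase II pauses near the start of most genes, held there by DSIF and NELF, until kinases release it. DSIF then stays with the polymerase together with SPT6 and the PAF1 complex, while FACT takes apart and rebuilds nucleosomes ahead of and behind it and TFIIS rescues arrested polymerase by stimulating cleavage of the transcript. Integrator acts against this flow: it carries an RNA endonuclease and a PP2A phosphatase, cuts the 3′ ends of small nuclear RNAs, and ends transcription of many genes early.

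The 6 libraries held between 53054048 and 70986130 reads assigned to genes, and replicates of 1 group differed by 4.52 to 24.1 times the chi-square that read sampling alone gives per degree of freedom. The markers of the serous line were present, with mean PAX8 at 11272 normalized reads with DMSO and 1241 with THZ531, and with KRT7 and EPCAM high in both groups. MUC16 went from 4598 to 3334 (log2 fold change -0.46), and WT1 from 650 to 579 (-0.17) with overlapping groups. Of 9 markers of other cell types, CD3E was at 0 in all libraries, while COL1A1 and VWF rose. The summed level ran from 952 to 1040 with DMSO and from 2070 to 2340 with THZ531 over 3 fibroblast markers, from 162 to 199 and from 213 to 299 over 3 endothelial markers, and from 23 to 59.8 and from 21.6 to 30.2 over 3 leukocyte markers. The fibroblast sum is nearly all COL1A1 (995 and 2190 on average), with DCN at a mean of 1.59 with DMSO and 0 in every treated library and PDGFRB at 11.5 and 9.29. In the endothelial sum VWF rose by 0.73 on the log2 scale while PECAM1 was at -0.16 and CDH5 at 0.13. Their part in the results was not tested. In bulk RNA, fewer cells that use a gene and less RNA per cell cannot be told apart.

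With THZ531, 8 of the 32 genes (25%) were regulated, meaning a fold change of at least 1.5 with an unadjusted p of at most 0.05 in limma, against 37.0% of the 15278 tested loci with a symbol. 4 genes fell, all subunits of Integrator: INTS6, INTS3, INTS5 and INTS9. 4 rose: CTR9, CDC73 and LEO1 of the PAF1 complex, and EAF1. Among the loci with a symbol 13.3% rose and 23.7% fell, and over all 17568 tested loci 39.5% were regulated, 15.7% higher and 23.9% lower. The other 24 genes moved less than 1.5-fold, although 30 of the 32 had an adjusted p of at most 0.05 (16 higher, 14 lower), a share to be read beside the 70.2% of symbol loci that reached it at any fold. The lowest and highest libraries of the groups did not overlap for 31 of the 32 genes, and for 72.9% of the symbol loci. The median log2 fold change over the 32 genes was 0.12, with a range from -2.68 to 0.85, beside -0.02 over the symbol loci, and 17 of the 32 (15 negative) were above 0, as were 49.0% of the symbol loci.

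**Figure D1:**
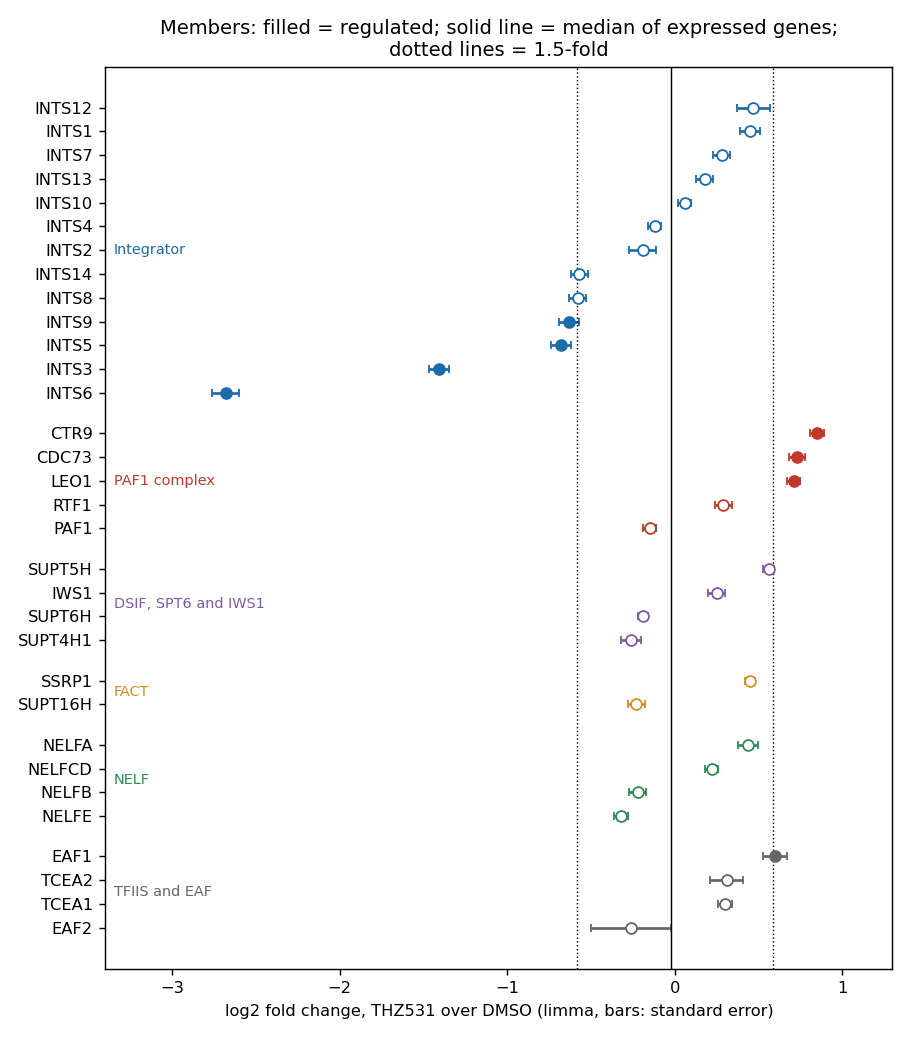
The log2 fold change of each gene (THZ531 against DMSO, points with bars of 1 SE, n = 3 libraries per group), grouped by complex, with dashed lines at the 1.5-fold threshold. INTS6 at -2.68 and INTS3 at -1.41 lie far to the left of the other Integrator genes, and CTR9, CDC73 and LEO1 lie between 0.71 and 0.85.

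Of the 13 Integrator genes 4 (30.8%) fell, a share near the 23.7% of symbol loci that fell, and none rose by this rule. Their median log2 fold change was -0.19, beside -0.02 over all symbol loci, and it was -0.12 without THZ531 replicate 3. INTS6 (hg38, chr13:51361577-51453207), which bridges Integrator to the phosphatase PP2A, moved furthest of the 32. It stood at 2057, 1961 and 2064 in the DMSO libraries and 329, 286 and 329.9 in the THZ531 libraries, in normalized reads. All treated libraries were far below all DMSO libraries. The mean went from 2027 ± 57.8 to 315 ± 24.8 (SD, n = 3 each), a 6.43-fold fall (log2 fold change -2.68 ± 0.08 SE, adjusted p = 2e-13), below that of all but 1.68% of tested loci.

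INTS3 (chr1:153728050-153774808), a subunit that also forms the SOSS complex, a sensor of single-stranded DNA, measured 3797, 3907 and 3777 in the DMSO libraries and 1306, 1457 and 1557 in the THZ531 libraries. The groups lay far apart, and the mean fell 2.66-fold, from 3827 ± 70.1 to 1440.3 ± 127 (log2 fold change -1.41 ± 0.06, adjusted p = 1.2e-11). INTS5 (chr11:62646784-62653302), a scaffold of the phosphatase module, measured 2753, 2413 and 2288 in the DMSO libraries and 1530.3, 1588 and 1529 in the THZ531 libraries, and its DMSO libraries were the more widely spread group. It fell 1.6-fold (log2 fold change -0.68 ± 0.06, adjusted p = 1.2e-07). INTS9 (chr8:28767661-28924931), the partner of the endonuclease INTS11 in the cleavage module, measured 2253, 2071 and 2063 in the DMSO libraries and 1355, 1282 and 1496 in the THZ531 libraries and fell 1.55-fold (log2 fold change -0.63 ± 0.06, adjusted p = 3.1e-07). Every treated library was below every DMSO library for INTS5 and INTS9 too. Without THZ531 replicate 2, INTS9 was just short of the threshold at -0.58. The INTS3 row overlaps that of SLC27A3 on the same strand and the INTS9 row meets that of HMBOX1, so reads there may be shared. INTS9 is on the minus strand, and its row reaches upstream of the gene, to 28924931 against 28890242 in GENCODE.

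Close to the threshold, at a log2 value of 0.585 in either direction, lay INTS8 and INTS14. INTS8, the other bridge to PP2A, measured 2309, 2381 and 2347 in the DMSO libraries and 1597, 1573 and 1528 in the THZ531 libraries, without overlap, with a log2 fold change of -0.58 (adjusted p = 4.5e-08). INTS14, of the arm module, measured 3156, 3061 and 2882 in the DMSO libraries and 1966, 2014 and 2140.0 in the THZ531 libraries, also without overlap, with -0.57 (adjusted p = 9.2e-08). Both were called regulated by edgeR on the recovered reads. INTS4 had a log2 fold change of -0.12 (adjusted p = 0.0079). INTS2 had one of -0.19 (adjusted p = 0.043), which was -0.1 without THZ531 replicate 3 (unadjusted p = 0.18 in limma).

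The remaining 5 Integrator genes had positive log2 fold changes, none of them past 1.5-fold, and all 5 turned negative when the libraries were scaled to RPL34, a scaling described below. INTS12, a subunit with a PHD finger, had the highest, measuring 479.5, 375 and 396 in the DMSO libraries and 554, 581 and 593 in the THZ531 libraries (log2 fold change 0.47 ± 0.1, adjusted p = 7e-04). INTS1, a scaffold of the complex, measured 5726, 5423 and 4733 in the DMSO libraries and 6967, 7251 and 7487 in the THZ531 libraries (log2 fold change 0.45 ± 0.06, adjusted p = 3.2e-06). In both, the lowest treated library was above the highest DMSO library. INTS7 was at 0.28, INTS13 of the arm module at 0.18 and INTS10 at 0.06 on the log2 scale. INTS10 was the Integrator gene with an adjusted p above 0.05 (adjusted p = 0.22), with 5455, 5371 and 5410.5 with DMSO against 5569, 5768 and 5536 with THZ531. INTS11, the endonuclease, is not among the 32 genes and stood at 9400.0 ± 406 with DMSO and 10632 ± 303 with THZ531 (log2 fold change 0.18 ± 0.04, adjusted p = 0.00098). Within each library, independently of scaling, the INTS11 to INTS9 ratio averaged 4.42 with DMSO and 7.75 with THZ531.

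**Figure D2:**
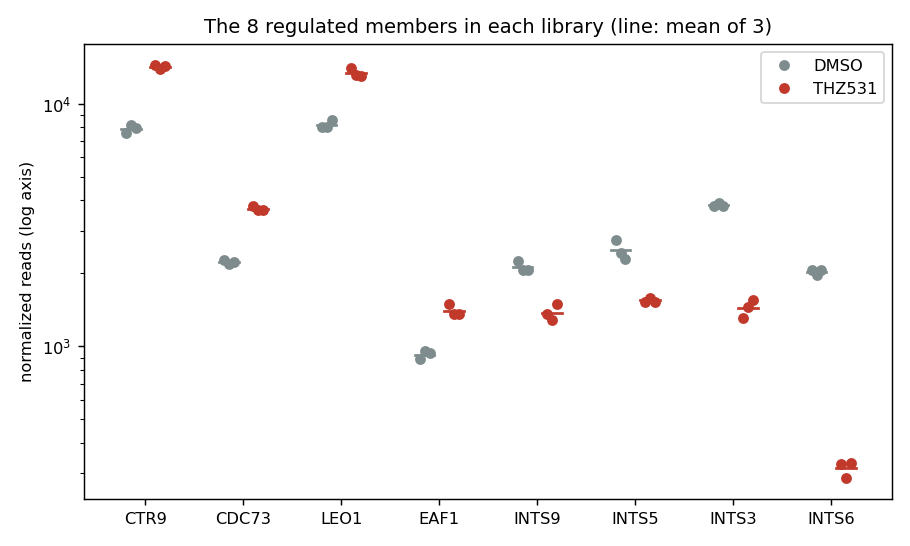
Normalized reads on a log axis in each of the 3 DMSO and 3 THZ531 libraries, with bars at group means, for the 8 regulated genes. In each panel the groups do not overlap, and the INTS6 libraries with THZ531 sit between 286 and 329.9 against 1961 to 2064 with DMSO.

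INTS6L, a paralog of INTS6, moved the other way. It measured 378, 387 and 399.7 in the DMSO libraries and 964, 878 and 792 in the THZ531 libraries. All treated libraries were above all DMSO libraries, and the gene rose 2.25-fold (log2 fold change 1.17 ± 0.09, adjusted p = 1e-08). Per kilobase of mRNA, INTS6 had 275.8 and INTS6L 99.4 normalized reads with DMSO, and 42.86 and 225 with THZ531, so their order of level changed. The ratio of INTS6L to INTS6 within a library, which needs no scaling between libraries, averaged 0.192 ± 0.00705 with DMSO and 2.8 ± 0.351 with THZ531.

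The SOSS complex joins INTS3 to the single-strand binding proteins NABP1 or NABP2 and to INIP. NABP1 measured 4442, 5402 and 6036 in the DMSO libraries and 1112, 1138 and 994 in the THZ531 libraries and fell 4.86-fold (log2 fold change -2.28 ± 0.09, adjusted p = 3.3e-12). NABP2, its alternative, had 2264, 2178 and 2198 with DMSO and 2219, 2194 and 2282 with THZ531, overlapping groups (log2 fold change 0.01 ± 0.05, adjusted p = 0.84). INIP measured 2162, 2352 and 2406 in the DMSO libraries and 1511, 1519.8 and 1455 in the THZ531 libraries and fell 1.54-fold (log2 fold change -0.62 ± 0.06, adjusted p = 6.8e-08). INTS11, NABP2 and INIP are named here for their place in these complexes, a choice made after their values were seen. NABP1 exceeded NABP2 1.48-fold per kilobase with DMSO and was at 0.299 of it with THZ531.

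The PAF1 complex was the group with most genes that rose, a count that depended on the scaling (CTR9 alone with equal totals, none with RPL34). Of its 5 genes in this set, 3 (60%) rose, beside 13.3% of symbol loci, and their median log2 fold change was 0.71, beside -0.02. This share and median leave out WDR61 (SKIC8), a subunit that was listed with the further elongation genes described below. Its mean was 3749 ± 131 with DMSO and 4384 ± 52.3 with THZ531. WDR61 was not regulated (log2 fold change 0.23 ± 0.04, adjusted p = 0.00022), and it is named here after its values were seen. CTR9 (chr11:10751245-10779746), the scaffold of the complex, measured 7580.2, 8153 and 7951 in the DMSO libraries and 14464, 13909 and 14244 in the THZ531 libraries. The treated libraries were all far above the DMSO libraries, and the mean rose 1.8-fold, from 7895 ± 290 to 14205 ± 280 (log2 fold change 0.85 ± 0.04, adjusted p = 1.9e-11). LEO1 (chr15:51938025-51982408) measured 7994, 7982 and 8545 in the DMSO libraries and 13961, 13146 and 12990.0 in the THZ531 libraries and rose 1.64-fold (log2 fold change 0.71 ± 0.04, adjusted p = 3.4e-10). CDC73 (chr1:193122031-193254815), which encodes the tumour suppressor parafibromin, measured 2276, 2182 and 2235 in the DMSO libraries and 3768, 3643 and 3655 in the THZ531 libraries and rose 1.65-fold (log2 fold change 0.73 ± 0.05, adjusted p = 9.4e-10). CTR9, CDC73 and LEO1 lay above 89.5%, 87% and 86.6% of tested loci.

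PAF1 and RTF1 were not regulated. PAF1 (chr19:39385629-39391117), the subunit that names the complex, measured 29516, 30485 and 33452 in the DMSO libraries and 27827, 27692 and 28708 in the THZ531 libraries, with a log2 fold change of -0.15 (adjusted p = 0.005). Every treated library was below the lowest DMSO library, by a small margin next to the spread of the DMSO libraries. RTF1, which binds the others loosely in human cells, measured 5752, 5995 and 5960.2 in the DMSO libraries and 7815, 6684 and 7209 in the THZ531 libraries, without overlap (log2 fold change 0.29 ± 0.05, adjusted p = 8e-05). Within each library the ratio of CTR9 to PAF1 averaged 0.254 ± 0.0151 with DMSO and 0.506 ± 0.0123 with THZ531. The matching ratios were 0.263 and 0.476 for LEO1, 0.0718 and 0.131 for CDC73, and 0.19 and 0.258 for RTF1. These pairs were chosen after the values were seen and carry no test.

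The end of the PAF1 row is shared with other annotation. In GENCODE, SAMD4B runs towards PAF1 on the plus strand and ends 82 nt inside the PAF1 row. A row with no symbol (chr19:39385121-39385671) overlaps the 3′ end of PAF1 by 43 nt. Its mean was 4990.5 ± 127 with DMSO and 1691 ± 124 with THZ531, a fall (log2 fold change -1.56, adjusted p = 1.5e-12), and the SAMD4B row, which ends before PAF1, had a log2 fold change of -1.3. How reads in the overlap were assigned was not tested.

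Promoters are shown for the pair of genes that fell most and for CTR9 and LEO1, so that the sequence around the start sites of genes moving in opposite directions can be read side by side. They come from RefSeq on GRCh38.p14 and run 5′ to 3′ on the strand of the gene, from 250 bases before the start to 50 after it. Capitals mark a CCAAT box (CCAAT), a GC box (GGGCGG) or an ETS core (CCGGAAG) on either strand, found by a letter search. INTS6 is on the minus strand at chr13:51452987-51453286, INTS3 on the plus strand at chr1:153727800-153728099, CTR9 on the plus strand at chr11:10750996-10751295 and LEO1 on the minus strand at chr15:51971729-51972028, with the deposited LEO1 row reaching further upstream.
INTS6: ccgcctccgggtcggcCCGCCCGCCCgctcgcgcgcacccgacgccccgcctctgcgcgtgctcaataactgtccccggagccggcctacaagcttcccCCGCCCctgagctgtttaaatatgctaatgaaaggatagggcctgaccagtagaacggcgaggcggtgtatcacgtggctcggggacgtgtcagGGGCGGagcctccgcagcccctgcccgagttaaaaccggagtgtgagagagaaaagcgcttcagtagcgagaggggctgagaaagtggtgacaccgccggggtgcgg
INTS3: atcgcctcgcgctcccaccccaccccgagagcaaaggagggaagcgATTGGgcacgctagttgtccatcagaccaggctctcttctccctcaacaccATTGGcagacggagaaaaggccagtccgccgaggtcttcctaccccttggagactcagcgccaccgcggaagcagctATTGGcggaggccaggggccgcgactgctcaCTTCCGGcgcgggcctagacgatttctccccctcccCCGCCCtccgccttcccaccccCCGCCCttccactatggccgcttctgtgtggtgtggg
CTR9: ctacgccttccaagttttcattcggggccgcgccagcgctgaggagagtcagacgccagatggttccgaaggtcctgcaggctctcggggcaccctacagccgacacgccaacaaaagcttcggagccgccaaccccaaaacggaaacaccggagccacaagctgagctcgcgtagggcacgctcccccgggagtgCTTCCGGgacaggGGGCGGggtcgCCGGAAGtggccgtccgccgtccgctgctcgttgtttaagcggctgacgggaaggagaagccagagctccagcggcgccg
LEO1: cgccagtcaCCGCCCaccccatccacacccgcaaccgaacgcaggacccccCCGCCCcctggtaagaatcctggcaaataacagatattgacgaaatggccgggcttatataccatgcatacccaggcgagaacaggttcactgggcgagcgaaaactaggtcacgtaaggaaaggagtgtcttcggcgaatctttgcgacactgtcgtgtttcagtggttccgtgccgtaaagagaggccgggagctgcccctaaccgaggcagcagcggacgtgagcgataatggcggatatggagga

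INTS6 and LEO1, which moved in opposite directions, both held GC boxes and neither of the other motifs. INTS3 held all of the kinds searched except TATAAA, and CTR9 held a GC box and an ETS core. Of the 32 genes 26 had an entry, and INTS5, CDC73, INTS8, INTS9, INTS10 and TCEA1 did not. The ETS core was in 11 of the 26 windows (42.3%), against 10.3% of all 35116 windows of the same length and 18.4% of the 10704 windows of expressed genes. The GC box was in 19 (73.1%), against 45.0% and 69.8%. The CCAAT box was in 10 (38.5%), against 34.6% and 36.6%. TATAAA, searched on both strands as well, was in 0 of 26, against 11.5% and 6.0%. Neighbouring motifs may share letters, as ATTGG and GGGCGG can, and a match describes the letters of the window only. Median GC content was 63.7% (range 52.3 to 79.3), and 58.7% over all windows.

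DSIF, FACT and NELF each held a pair of subunits with log2 fold changes of opposite sign in the deposited scaling, though none of their genes was regulated. With RPL34 scaling SSRP1 and NELFA turned to -0.04 and -0.06, and SUPT5H was at 0.06 (unadjusted p = 0.52 in limma). The ratios between partners do not depend on scaling. SUPT5H (chr19:39445572-39476670), the large subunit of DSIF, measured 107462, 112645 and 113249 in the DMSO libraries and 165031, 163737 and 161936 in the THZ531 libraries. All treated libraries were above all DMSO libraries, and the 1.47-fold difference was just under the threshold (log2 fold change 0.56 ± 0.03, adjusted p = 3.7e-10). SUPT4H1, its small partner, measured 2636, 2542 and 2825 in the DMSO libraries and 2129.8, 2195 and 2362 in the THZ531 libraries, with a log2 fold change of -0.26 (adjusted p = 0.00067). The SUPT5H to SUPT4H1 ratio was 40.8, 44.3 and 40.1 in the DMSO libraries and 77.5, 74.6 and 68.6 in the treated ones, a 1.76-fold difference that no scaling between libraries can change.

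SSRP1, the subunit of FACT with an HMG box, measured 34994, 35231 and 35687 in the DMSO libraries and 48625, 48298 and 47755 in the THZ531 libraries (log2 fold change 0.45 ± 0.03, adjusted p = 2e-09). Its partner SUPT16H measured 4340.3, 4140.3 and 4175 in the DMSO libraries and 3485, 3568 and 3766 in the THZ531 libraries (log2 fold change -0.23 ± 0.05, adjusted p = 0.00033). The groups did not overlap for either gene, and lay in opposite orders. Their ratio averaged 8.37 ± 0.27 with DMSO and 13.4 ± 0.648 with THZ531, a 1.6-fold difference.

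In NELF, NELFA measured 2053, 2314 and 2286 in the DMSO libraries and 2916, 3137 and 2952 in the THZ531 libraries (log2 fold change 0.44 ± 0.06, adjusted p = 3.4e-06). NELFE, the subunit that binds RNA, measured 6146, 6231 and 6092 in the DMSO libraries and 5047, 4854 and 4943 in the THZ531 libraries (log2 fold change -0.32 ± 0.04, adjusted p = 2.3e-06). Again neither gene had overlapping groups, and the NELFA to NELFE ratio averaged 0.36 with DMSO and 0.607 with THZ531. This pair, the highest and lowest of the 4 NELF genes, was chosen after the values were seen, as were the other pairs given as ratios. NELFCD had a log2 fold change of 0.22 (adjusted p = 6.1e-05) and NELFB one of -0.22 (adjusted p = 0.001), so the 4 NELF genes were split evenly and their median was 0. The NELFCD row is far longer than the gene in GENCODE and reaches over the neighbours CTSZ, TUBB1, ATP5F1E and PRELID3B, so its value may hold reads of these genes.

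**Figure D3:**
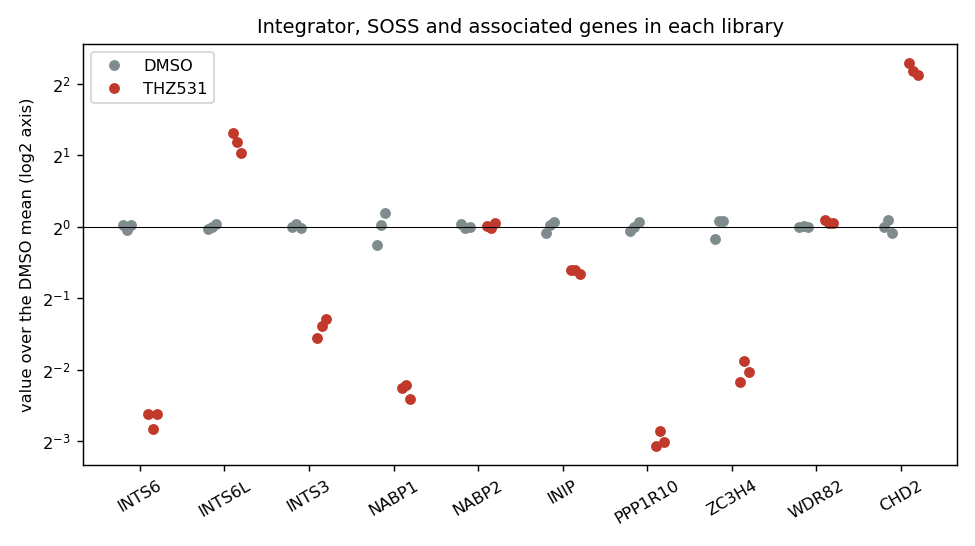
Normalized reads over the DMSO mean of the same gene, on a log2 axis, with a point per library. The genes are INTS6, INTS6L, INTS3, NABP1, NABP2, INIP, PPP1R10, ZC3H4, WDR82 and CHD2. With THZ531, INTS6, INTS3, NABP1, INIP, PPP1R10 and ZC3H4 lie lower, and INTS6L and CHD2 lie higher. NABP2 overlaps between the groups, and WDR82 stays near its DMSO mean (log2 fold change 0.06).

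SPT6 and IWS1, which bind each other, had small differences of opposite sign, except that IWS1 turned negative with RPL34 scaling. SUPT6H measured 28346, 29314 and 29773 in the DMSO libraries and 25528, 25489 and 25850.3 in the THZ531 libraries (log2 fold change -0.19 ± 0.03, adjusted p = 8.9e-05). IWS1 measured 3218, 3251 and 3405 in the DMSO libraries and 4210.4, 3756 and 3778 in the THZ531 libraries (log2 fold change 0.25 ± 0.05, adjusted p = 0.00044). For both the groups were apart. Over the 4 genes of DSIF, SPT6 and IWS1 the median log2 fold change was 0.03, and over the pair of FACT genes 0.11.

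EAF1 (chr3:15427037-15442613) was the regulated gene of the last group, the TFIIS and ELL-associated factors, whose median was 0.31. It measured 884, 957 and 937 in the DMSO libraries and 1490.0, 1363 and 1355 in the THZ531 libraries and rose 1.51-fold (log2 fold change 0.6 ± 0.07, adjusted p = 7e-07). All treated libraries were above all DMSO libraries, but the call lay at the edge of the threshold: it was lost without DMSO replicate 1 (log2 fold change 0.57) or THZ531 replicate 1 (0.55). EAF2, its paralog, had the lowest normalized reads of the 32 genes with DMSO and was the 1 whose groups overlapped. It measured 81.8, 96.5 and 71.8 in the DMSO libraries and 52.9, 79.6 and 77.4 in the THZ531 libraries (log2 fold change -0.26 ± 0.24, adjusted p = 0.35).

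TCEA1, the general TFIIS, measured 3091, 3172 and 3074 in the DMSO libraries and 3954, 3789 and 3762 in the THZ531 libraries, with a log2 fold change of 0.3 (adjusted p = 1.5e-05). TCEA2, its paralog, measured 451, 402 and 391 in the DMSO libraries and 496, 510.4 and 535 in the THZ531 libraries (log2 fold change 0.31 ± 0.1, adjusted p = 0.0088). Both had higher treated libraries without overlap, and both turned negative with RPL34 scaling. The deposited TCEA2 row ends at chr20:64077079, past the end of the gene in GENCODE (64072347), so its value may hold other reads. Per kilobase TCEA1 was 3.2 times TCEA2 with DMSO and 3.18 times with THZ531. For EAF1 and EAF2 the same ratio was 2.49 and 4.5.

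Levels of different genes were compared per kilobase of mRNA. SUPT5H had the highest of the 32, at 30210 normalized reads per kilobase with DMSO and 44470 with THZ531, above 99.2% of 13246 genes. PAF1 followed at 14160 and 12760, and SSRP1 at 12470 and 17040. The order of PAF1 and SSRP1 was thus exchanged with THZ531. SUPT6H at 4551, NELFE at 4260 and LEO1 at 3775 came next with DMSO. At the low end were INTS2 at 164.3 and EAF2 at 83.53. Integrator genes were spread from 164.3 for INTS2 to 3323 for INTS13 with DMSO, and INTS6 went from 275.8 to 42.86, the lowest of the 32 with THZ531. The median of the 32 genes was 1110, beside 283 over all genes. Spearman's rho between this DMSO level and log2 fold change was 0.13 across the 32 genes and 0.23 across 13246 genes. Both measures use the DMSO values, and no test was made. The share of 37.0% regulated, given above for symbol loci, was not matched for level.

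**Figure D4:**
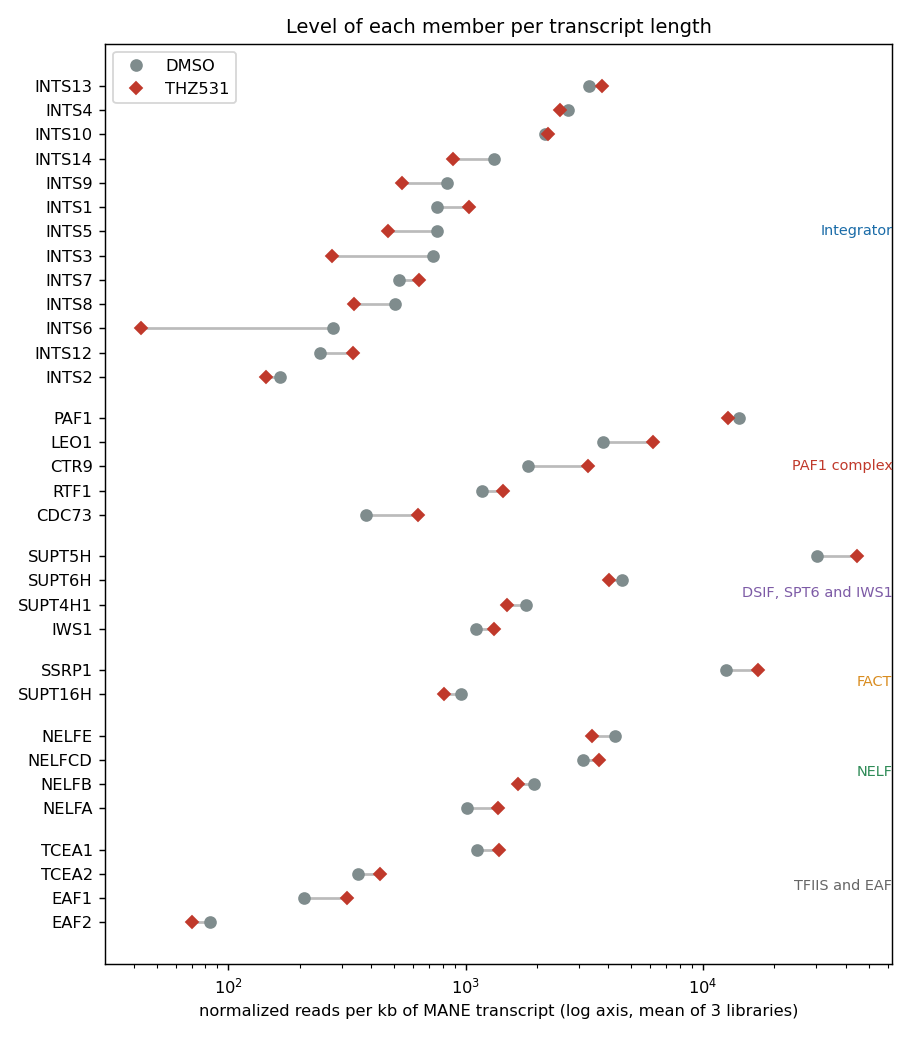
Mean normalized reads per kilobase of mRNA on a log axis for each gene with DMSO and with THZ531 (n = 3 libraries each). SUPT5H is highest at 30210 with DMSO, EAF2 is lowest at 83.53, and INTS6 drops below EAF2 with THZ531.

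Gene structure varied widely among the 32 genes, from 5478 to 132785 nt of span. Across the 32 genes Spearman's rho between span and log2 fold change was -0.09, and -0.05 across 13246 genes, which share the libraries and are not replicates, so no p is given. CDC73, the longest, rose. INTS5, with 6455 nt and 1 intron, fell. INTS6 spans 91460 nt with 17 introns and 87 copies of AATAAA in them, beside 115 in CDC73. Per kilobase of intron the order was the reverse, 1.03 in INTS6 and 0.906 in CDC73. Across the 32 genes rho between the intronic AATAAA count and log2 fold change was -0.07. These genes are single cases, and a part of length or of AATAAA was not tested.

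Within the 32 gene spans lay 10 rows without a symbol, of which 4 passed the minimum. 1 of the 4 rose, beside the 31.1% of the 2290 tested loci without a symbol that rose and the 56.4% that were regulated. It lies in intron 1 of NELFA (chr4:1993815-1998614, 4800 nt), 10136 to 14935 nt past the 5′ splice site. It measured 36.5, 54.7 and 56.7 with DMSO and 154, 197 and 179 with THZ531. Every treated library was above every DMSO library, with a log2 fold change of 1.84 ± 0.22 (adjusted p = 2.1e-06), against 0.44 for NELFA itself. The deposited table gives no strand. The strand inferred from neighbouring identifiers, a rule that matched GENCODE for 98.88% of 23059 named loci, is that of NELFA. The row inside IWS1 was at 0.11 (adjusted p = 0.76), that inside NELFB at -0.14 (0.54) and that inside NELFCD at -0.13 (0.87).

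Small nuclear RNA genes gave few reads in these polyA libraries. Integrator cleaves the transcripts of those made by RNA polymerase II, such as U1. Of 27 rows 8 passed the minimum and 6 rose, but RNVU1-7, RNVU1-19 and the joint row of RNVU1-4 and RNVU1-20 passed through their THZ531 libraries alone, so a rise was fixed for them and the count of rises is not read further. RNVU1-14, a variant U1 gene, measured 43.7, 39.9 and 47.9 in the DMSO libraries and 117, 113 and 84.2 in the THZ531 libraries (log2 fold change 1.23 ± 0.24, adjusted p = 0.00027). The groups of RNVU1-14 were far apart. RNVU1-7 was at 0 in all DMSO libraries and at 84.4, 76.2 and 106 with THZ531. No fold is read from it, since it passed the minimum through its THZ531 libraries alone. RNVU1-15 rose by 0.94 on the log2 scale (adjusted p = 0.049) with overlapping groups. RNU11, in a row joined with LINC01715, and RNU4-2 were not regulated and had overlapping groups too. Their log2 fold changes were 0.25 (adjusted p = 0.66) and 0.41 (adjusted p = 0.59). The joint row of RNVU1-4 and RNVU1-20 measured 9.53, 0 and 0 in the DMSO libraries and 45.3, 27.3 and 41.0 in the THZ531 libraries, too low with DMSO for a fold. RNU6ATAC, a minor spliceosome RNA made by RNA polymerase III and not a substrate of Integrator, rose by 1.23 ± 0.46 (adjusted p = 0.026). It measured 11.1, 7.42 and 16.0 in the DMSO libraries, near the minimum, and 21.4, 38.6 and 23.9 in the THZ531 libraries. U1 genes are near-identical copies, so the split of reads among them is uncertain.

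Of 29 further genes of elongation and termination, all passed the minimum and 15 (51.7%) were regulated, 8 up and 7 down, beside 37.0% of symbol loci (13.3% up, 23.7% down). Their median log2 fold change was 0.09, beside -0.02. 6 of the 10 largest changes were falls. PPP1R10, a regulator of the phosphatase PP1, measured 4119.6, 4306 and 4504 in the DMSO libraries and 514, 597 and 532 in the THZ531 libraries, a 7.87-fold fall (adjusted p = 1.6e-14). ZNF609 went from 12904 ± 204 to 2741 ± 291 (adjusted p = 6.2e-14), and ZC3H4, which restricts unproductive transcription, from 1410.4 ± 137 to 346 ± 34.9 (adjusted p = 3.3e-11). NABP1, described above, was among them. RECQL5, a helicase that binds RNA polymerase II, and TCEANC2 fell too, at -1.77 and -1.32 on the log2 scale.

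The 4 rises of that set were CHD2, INTS6L, SPTY2D1 and DIDO1. CHD2, a chromatin remodeller, measured 1065, 1145 and 1002 in the DMSO libraries and 5218, 4838 and 4670.2 in the THZ531 libraries, a 4.58-fold rise (adjusted p = 1.1e-13). SPTY2D1, a histone chaperone, and DIDO1 rose by 1.08 and 1.05 on the log2 scale (adjusted p = 2e-09 and 8.7e-12). Each of the 3 had treated libraries wholly above the DMSO libraries.

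The directions above rest on the scaling in the deposited values, under which the median of all tested loci shifted by -0.01. Scaled to the same total per library, the median shifted by -0.25, CTR9 alone of the 32 genes rose and 6 fell (INTS8 and INTS14 in addition). With upper-quartile scaling it shifted by 0.11, and 6 rose (INTS12 and SUPT5H in addition) while INTS3 and INTS6 fell. Scaled to the ribosomal protein gene RPL34, the median shifted by -0.5, no gene of the 32 rose and 15 fell. Relative to its geometric mean, deposited RPL34 was 0.926, 0.835 and 0.774 in the DMSO libraries and 1.18, 1.19 and 1.19 in the THZ531 libraries. RPL34 itself was thus higher with THZ531 in the deposited values. INTS6 and INTS3 fell under each of these scalings. With RPL34 scaling the log2 fold change was 0.35 for CTR9, 0.23 for CDC73, 0.22 for LEO1 and 0.11 for EAF1 (unadjusted p = 0.33 in limma for EAF1), all short of the threshold.

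**Figure D5:**
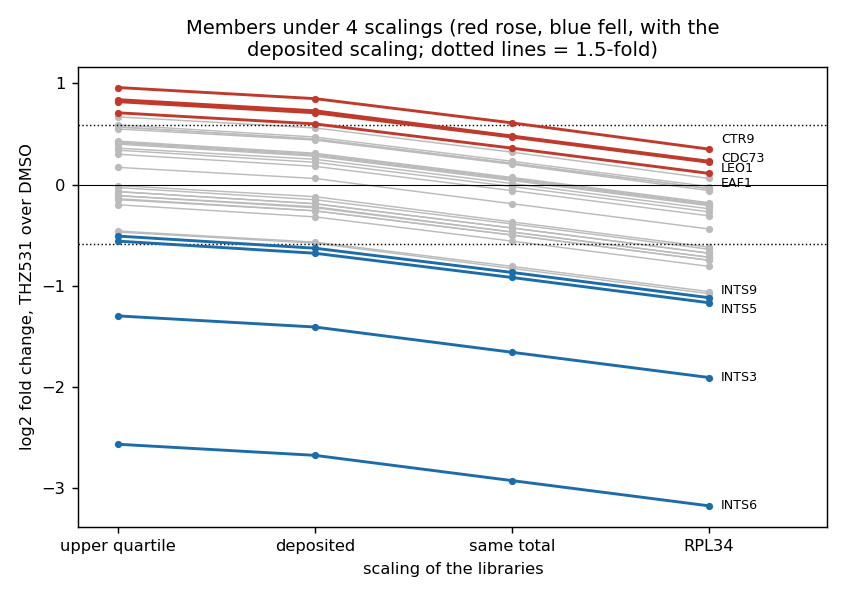
The log2 fold change of each of the 32 genes under the deposited scaling, equal totals, upper quartile and RPL34. INTS6 and INTS3 stay below the 1.5-fold threshold under each of the 4 scalings, while the count of genes above it goes from 4 to 1, 6 and 0.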

How the data were processed

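The deposited table holds normalized counts that the authors made with DESeq2, here treated as a signal: reads of TruSeq Stranded mRNA libraries were aligned with STAR (2.7.5a in the submitters' processing notes) to hg38, counted with featureCounts on FAST DB genes, and divided by a size factor per library. All values were whole reads (tolerance 0.02) once multiplied back, and 0 columns were left without a sample. The deposited scaling assumes that most genes hold their level, which moves every fold change together if it fails. Of 47577 loci, the 17568 with at least 10 normalized reads in at least 3 of 6 libraries were fitted with limma (3.58.1, R 4.3.3) on log2(value + 1) with a trended prior and no covariate, THZ531 against DMSO. Fold changes are on that scale, with SE. P-values are two-sided and were adjusted by Benjamini-Hochberg over all 17568 loci. Depth was 53054048 to 70986130 reads on genes, and intervals between libraries cover these cultures only.

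The named genes are all 32 genes of the set, the regulated further elongation genes (at most 10, by size), the unnamed loci inside the 32 that passed the minimum, and the regulated small nuclear RNA genes (at most 5, by mean). The members and lists were chosen with earlier results of these data known. Lengths and introns came from GENCODE MANE transcripts, promoters from RefSeq. edgeR (4.0.16) and DESeq2 (1.42.0) on recovered reads, other pseudocounts, minimums, scalings and thresholds, a replicate block and leaving out each library were alternatives. The fit was also run on simulated data. Few genes changed there, all by more than 1.5-fold, so it cannot bear on calls near the threshold or on scaling. Strand is not in the deposited table.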

Additional observations from a re-analysis of the deposited data

How the results depend on the processing

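All 8 regulated genes kept their call and direction with pseudocounts of 0.1 and 10, with a minimum of 50 or none, without a trend and with DESeq2. By edgeR 9 were called: EAF1 was lost and INTS8 and INTS14 were gained. At a fold of 2, 2 genes were regulated, both falls (0 rises), and 4 of the further genes rose. The replicate numbers of the labels gave no sign of pairing (correlations of deviations 0.002, 0.019 and -0.039, and not every sample correlated best with its own number). These correlations cannot tell whether cultures of the same number were handled together. With the replicate number as a block, 8 genes were called, 4 higher and 4 lower. With 3 libraries a group, leaving out 1 gave 8 to 9 calls (3 to 4 higher, 4 to 5 lower): INTS9 was lost without THZ531 replicate 2, EAF1 without replicate 1 of either group, and INTS8 or INTS14 was gained without 5 of the 6 libraries.

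Scaling moved the counts and medians, and the cause was not tested. Of the 32 genes, 1 rose with equal totals, 2 fell with upper-quartile scaling, and 15 were called with RPL34 scaling (0 higher, 15 lower). Of the further genes 5 rose with equal totals, and with RPL34 3 rose and 11 fell. Of the unnamed loci inside the genes, 2 were called with RPL34, 1 of them lower. The medians under equal totals, upper quartile and RPL34 were -0.12, 0.23 and -0.37 over all 32 genes, -0.43, -0.07 and -0.68 for Integrator, -0.21, 0.15 and -0.46 for DSIF, SPT6 and IWS1, -0.13, 0.23 and -0.38 for FACT, 0.47, 0.82 and 0.22 for the PAF1 complex, -0.24, 0.11 and -0.49 for NELF, and 0.06, 0.42 and -0.19 for TFIIS and EAF. With edgeR they were 0.1 over all genes, 0.09 for FACT and -0.02 for NELF. Leaving out 1 library they ran from 0.1 to 0.14 over all genes, from -0.24 to -0.12 for Integrator and from -0.02 to 0.03 for NELF.

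Some small differences turned sign. With RPL34 scaling these were INTS1 (-0.04), INTS7 (-0.21), INTS10 (-0.44), INTS12 (-0.02), INTS13 (-0.31), IWS1 (-0.24), SSRP1 (-0.04), RTF1 (-0.2), NELFA (-0.06), NELFCD (-0.27), TCEA1 (-0.19), TCEA2 (-0.18) and the locus inside IWS1 (-0.37). With equal totals they were INTS10 (-0.19), INTS13 (-0.06), NELFCD (-0.02) and the locus inside IWS1 (-0.13). Leaving out 1 library, the loci inside IWS1, NELFB and NELFCD ran from -0.05 to 0.34, from -0.27 to 0.02 and from -0.56 to 0.52, so these low rows carry no direction.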

Other observations

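PAF1 and SUPT5H, the genes of the set with the highest level per kilobase with DMSO, lie 54476 nt apart on chromosome 19. Besides this pair, 24 expressed genes have a start within 500 kb of the stretch they span. Of these, 5 were above the 95th percentile of normalized reads per kilobase with DMSO: RPS16 (100.0), FBL (99.7), PSMC4 (99.3), MRPS12 (96.8) and SAMD4B (95.2). The median percentile of the 24 genes was 88.9. The median percentile of the other 945 expressed genes of the chromosome was 48.5. The window was chosen after the values were seen, no test was made, and the copy number of the region in OVCAR3 was not measured here.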
